A study of Homo sapiens with 10 samples.

Results

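Histone H3 acetylated at lysine 27 (H3K27ac), which marks promoters and enhancers in use, was compared between 24 h and 2 h of treatment with the degrader dTAG47 in Rh30 cells. Rh30 is an established human alveolar rhabdomyosarcoma line, and here it carried a PAX3-FOXO1-FKBP fusion. The comparison used 4 of the 10 libraries of the series, 2 per time, chosen by the treatment time in their labels. All treated cells had received 500 nM dTAG47. The 2 libraries of 4 h of dTAG47 and the 2 of DMSO, the solvent control, served to place the levels and to estimate the spread, and the remaining 2 are inputs, not analysed here. The labels do not say whether the line is 1 clone, how the fusion is driven, or when the DMSO cells were collected, so time in culture and time of treatment cannot be told apart. All 42067 deposited peak windows were read, and 41791 had enough counts to be tested.

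PAX3-FOXO1 joins the DNA-binding part of PAX3 to the activating part of FOXO1 and drives alveolar rhabdomyosarcoma, a tumour of cells arrested on the way to skeletal muscle. It binds mostly distal enhancers, where acetyltransferases such as p300 and CBP place H3K27ac. FKBP serves as a degron: dTAG47 ties it to a ubiquitin ligase, and the tagged protein is destroyed. Acetylation that depends directly on a bound factor can decline soon after the factor is gone, whereas later changes can follow from altered expression of other regulators. The comparison of 24 h with 2 h asks which sites moved after the first 2 h. These can be sites that moved further from DMSO, sites that moved back towards it, or sites with no change called at 2 h. Nearby genes were not assigned here, because the peaks are on hg19 and the only gene table used was on GRCh38. Peaks are given by their hg19 position as deposited, and for the same reason muscle marker genes were not checked and no sequence is shown.

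The 24 h libraries held 5001652 (A) and 4369471 (B) counts in peaks, against 3616695 (A) and 4744596 (B) in the 2 h libraries. The 4 h and DMSO libraries held between 3540104 and 4044019. Counts of the libraries of 1 group differed by more than sampling noise in every group. For peaks with over 1000 counts in the pair, the chi-square per degree of freedom was 1.84 at 24 h and 3.65 at 2 h, the highest of the 4 groups, so the 2 h libraries differed most from each other. Nothing states that libraries of a group came from separate cultures, and p-values then measure only the spread between these libraries.

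Between 2 h and 24 h, H3K27ac fell at 1041 peaks and rose at 705 (quasi-likelihood test in edgeR at an adjusted p of 0.05). These are 2.49% and 1.69% of the 41791 peaks. The median log2 change at 24 h against 2 h was -0.64 among the peaks that fell and 0.77 among those that rose, with ranges of -2.14 to -0.22 and 0.21 to 2.09. Changes of more than 2-fold were found at 113 of the lower and 185 of the higher peaks. Of these, 28 lower and 108 higher peaks were called against DMSO at neither 2 h nor 24 h. Median standard errors were 0.30 in the weakest quartile of peaks by level and 0.11 in the strongest, so weak peaks needed a larger change to be called. The peaks that fell were the stronger ones, with a median level of 22.4 CPM (counts scaled to each library's total in peaks, with TMM factors), against 11.2 for those that rose and 13.7 for all tested peaks. The counts of calls rested on all 4 libraries: leaving out 24 h library A left 400 losses and 180 gains, and leaving out 24 h library B left 435 losses and 277 gains. Leaving out 2 h library A gave 587 losses and 406 gains, and leaving out 2 h library B gave 363 losses and 167 gains. The DESeq2 Wald test called 49 lower and 12 higher peaks, all of them among the edgeR calls.

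**Figure D1:**
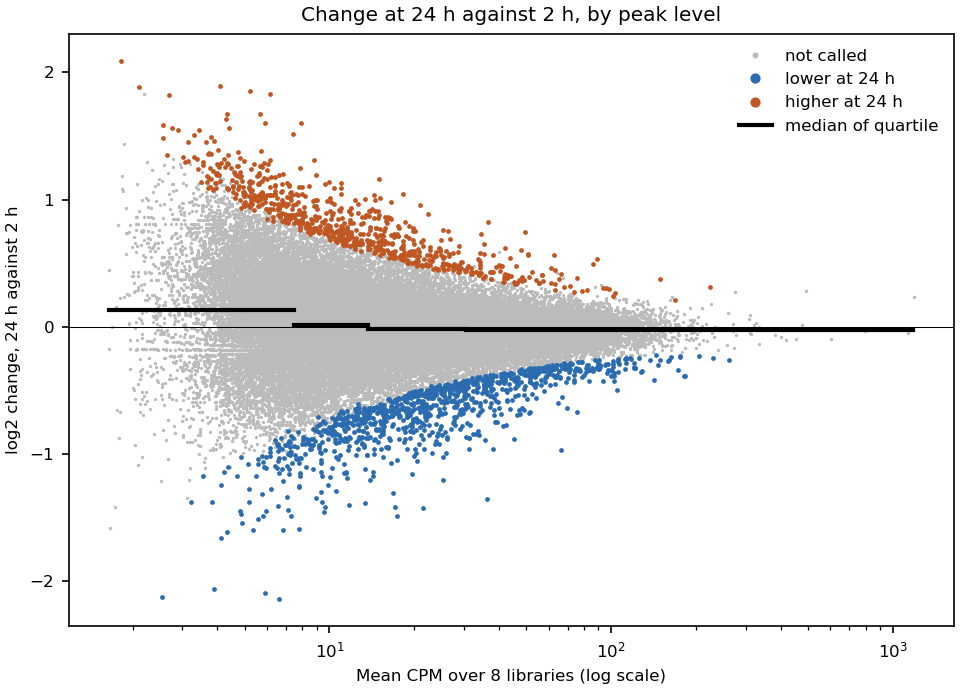
Log2 change at 24 h against 2 h (vertical axis) against the mean CPM over 8 libraries (horizontal axis, log scale) for the 41791 tested peaks, with the 1041 peaks called lower in blue, the 705 called higher in orange and the rest in grey. Black lines give the median change in each quartile of the peaks by level, 0.13 in the weakest quartile and -0.03 in the strongest.

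Direction went with the level of the peak. In the weakest quartile, with a mean between 1.65 and 7.5 CPM, 76 peaks fell and 224 rose, and the median change of the whole quartile was 0.13. In the strongest quartile, from 30.4 CPM upwards, 366 fell and 92 rose, and the median change was -0.03. The shift of weak peaks was larger against 2 h library B: the median log2 difference from it was 0.18 for 24 h library A and 0.14 for 24 h library B, while from 2 h library A it was 0.08 and 0.03. With offsets that follow abundance, which bring the median of each quartile to between 0.00 and 0.01, the weakest quartile held 151 lower and 105 higher peaks, so the balance of gains and losses among weak peaks turned round with the scaling. In the strongest quartile losses still led, with 278 lower and 149 higher peaks. Under these offsets 880 of the 1041 lower and 551 of the 705 higher peaks were called again.

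The 10 strongest losses at peaks of at least median level lay on chromosomes 1, 9, 10, 11, 15 and 20. A peak on chromosome 1 at 224970135 to 224970535 had 9.31 and 5.46 CPM at 24 h, against 20.6 and 21.6 CPM at 2 h. Its log2 change was -1.49 (SE 0.20, edgeR adjusted p = 2.27e-08). DMSO libraries stood at 24.8 and 21.0 CPM and 4 h libraries at 18.5 and 17.6 CPM, so no change passed the test at 4 h against DMSO (log2 change -0.34, edgeR adjusted p = 0.392) and the 24 h libraries lay below all the others.

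On chromosome 10 at 115426225 to 115426625, 24 h libraries had 16.1 and 19.3 CPM, against 46.2 and 44.0 CPM at 2 h (log2 change -1.35, SE 0.13, edgeR adjusted p = 1.37e-14). DMSO libraries had 46.1 and 43.8 CPM, the same level as at 2 h, and 4 h libraries had 38.5 and 35.0 CPM. The loss at this peak was thus not seen at 2 h (log2 change against DMSO 0.00) and was mostly made after 4 h (log2 change at 24 h against 4 h -1.06, edgeR adjusted p = 1.1e-07). A second peak on this chromosome, at 109305563 to 109305963, had 14.9 and 10.9 CPM at 24 h, against 30.3 and 29.9 CPM at 2 h. DMSO there had 29.6 and 34.1 CPM, and the 2 h libraries lay within that range.

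Other strong losses had begun earlier. The peak on chromosome 20 at 56646363 to 56646763 averaged 26.0 CPM in DMSO, 19.4 at 2 h, 14.4 at 4 h and 7.70 at 24 h, falling at each step. Its log2 change was -1.31 at 24 h against 2 h and -0.86 at 4 h against DMSO (edgeR adjusted p = 0.00066). On chromosome 9 at 116984488 to 116984888 the means were 32.3, 23.6, 21.0 and 8.82 CPM in the same order, and on chromosome 1 at 48140941 to 48141341 they were 30.9, 22.5, 15.2 and 10.0 CPM. In the last of these the 4 h libraries disagreed, at 19.6 and 10.7 CPM. The remaining 4 losses lay on chromosome 11 at 126417411 and 8740417, chromosome 15 at 95453086 and chromosome 1 at 3286971, with log2 changes at 24 h against 2 h of -1.42, -1.15, -1.21 and -1.18. Against DMSO, the peak at 126417411 was called lower at 4 h (log2 change -0.62, edgeR adjusted p = 0.0383). The peak at 3286971 was called lower at 2 h (edgeR adjusted p = 0.0393) and 4 h (0.000104). Those at 8740417 and 95453086 were called at neither time. All 10 were called when any 1 of the 4 libraries was left out. DESeq2 called 8 of them, and not those at 3286971 and 8740417.

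The 10 strongest gains at peaks of at least median level included 2 on chromosome 17, 2 on chromosome 20 and 3 on chromosome 1. The largest of these 10 lay on chromosome 7 at 25766407 to 25766807, with 20.8 and 24.1 CPM at 24 h, against 10.5 and 9.60 CPM at 2 h (log2 change 1.16, SE 0.19, edgeR adjusted p = 4.12e-06). DMSO libraries had 11.96 and 14.8 CPM, above the 2 h libraries, and the log2 change at 24 h against DMSO was smaller, at 0.74. The 24 h libraries lay above those of all other groups.

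A gain on chromosome 1 at 55024548 to 55024948 came after 4 h. It had 33.5 and 26.2 CPM at 24 h, against 14.3 and 14.7 CPM at 2 h (log2 change 1.05, SE 0.16, edgeR adjusted p = 1.19e-06), while 4 h libraries had 15.5 and 12.9 CPM and DMSO libraries 15.7 and 12.8 CPM. The 3 earlier groups overlapped, and the 24 h libraries stood apart from all of them. The peak on chromosome 20 at 44767959 to 44768359 averaged 15.8 CPM in DMSO, 16.1 at 2 h, 21.0 at 4 h and 31.1 at 24 h. On chromosome 19 at 18555225 to 18555625 the means were 7.11, 12.49, 13.5 and 25.2 CPM in the same order, so this peak was already above DMSO at 2 h, without passing the test there (log2 change 0.81, edgeR adjusted p = 0.0767). The other 6 gains had log2 changes at 24 h against 2 h between 0.91 and 1.04. DESeq2 called 3 of the 10, those at 25766407, 55024548 and 44767959. Without 2 h library B the gains on chromosome 17 at 64943763 (edgeR adjusted p = 0.102) and 33474998 (0.0721) were not called.

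**Figure D2:**
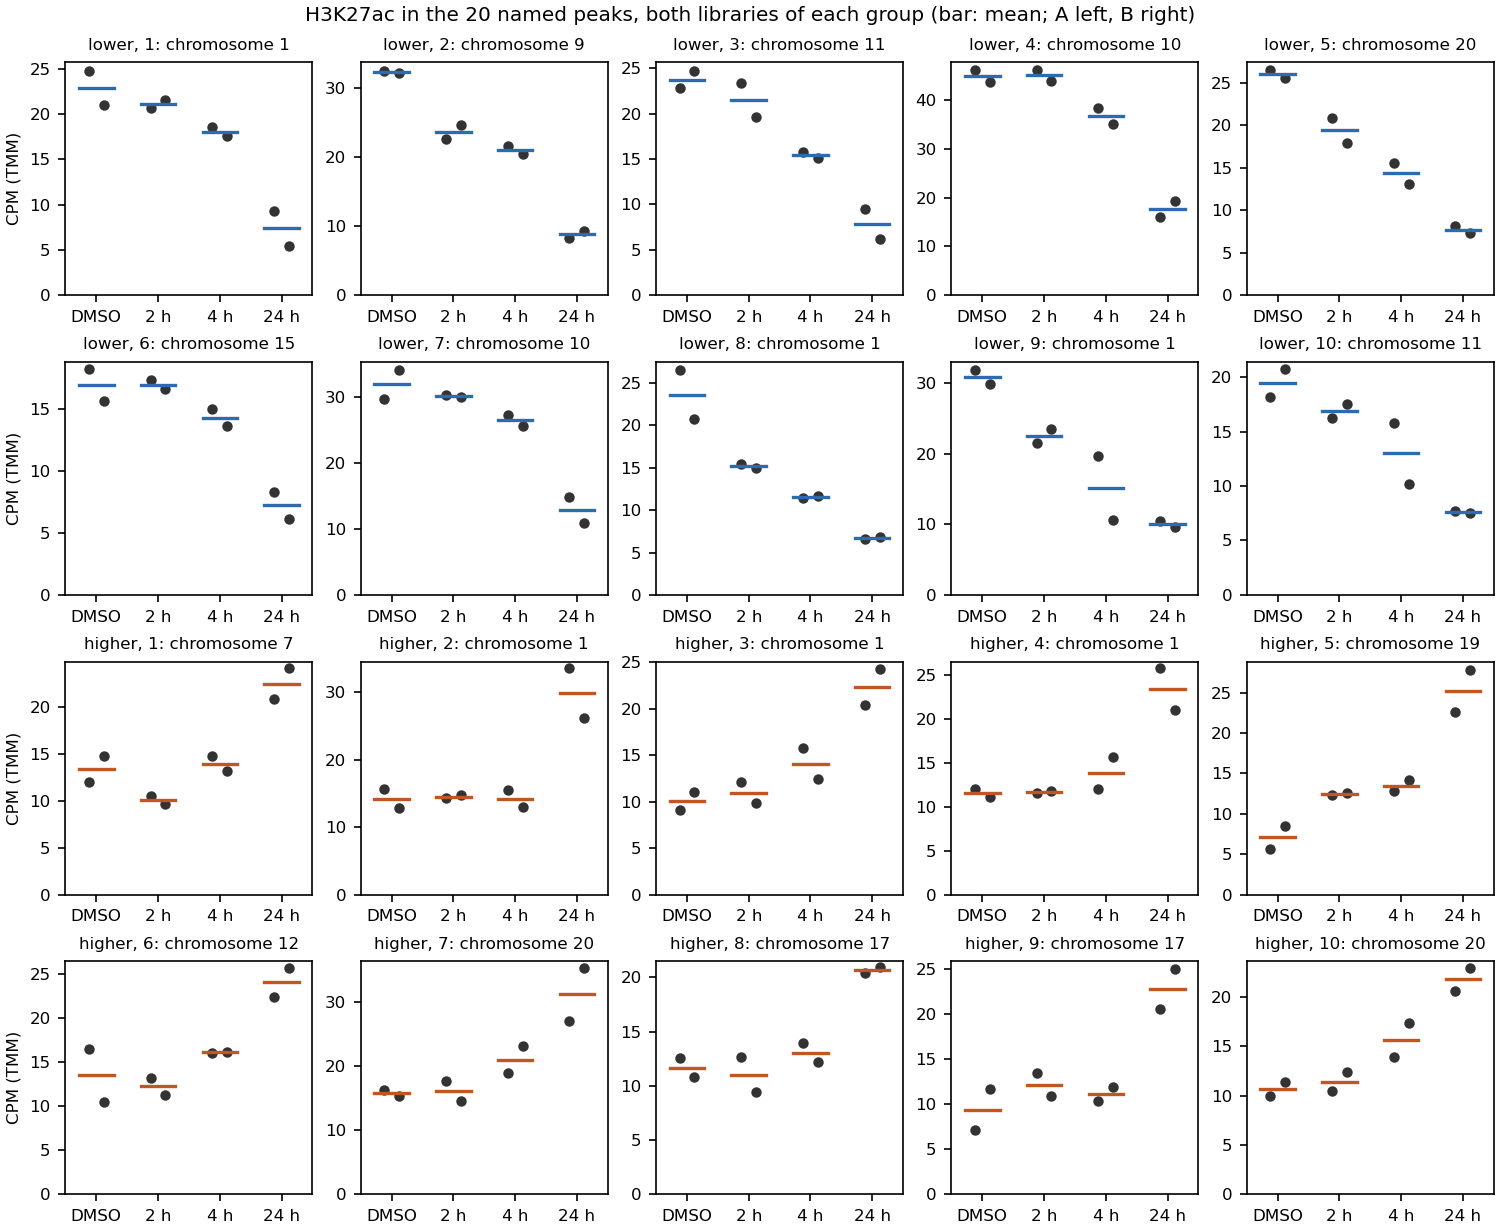
TMM-scaled CPM of both libraries (points, A left and B right) and their mean (bar) in DMSO, 2 h, 4 h and 24 h for the 10 losses (blue) and 10 gains (orange) named by size, in order of log2 change at 24 h against 2 h. In all 20 peaks both 24 h libraries lie on one side of both 2 h libraries, as the rule that named them required.

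To see whether sites had moved on or moved back, the peaks called for 24 h against 2 h were set beside their call for 2 h against DMSO. At 2 h, 431 peaks (1.03% of those tested) were lower than DMSO and 81 (0.194%) were higher. Of these 431, 48 (11.1%) fell further by 24 h and 18 (4.18%) rose again, beside 2.49% lower and 1.69% higher among all tested peaks. Of the 81, 3 (3.7%) rose further and 10 (12.3%) fell again. Both comparisons use the 2 h libraries, so an error in them adds to the peaks that moved back and takes from those that moved on, and the counts are a description. Most calls were outside these groups: 551 peaks fell and 383 rose against 2 h with no call at 2 h against DMSO and a call in the same direction at 24 h against DMSO. They are called late here, which does not mean that nothing had moved at 2 h. The 2 h mean lay between the DMSO and 24 h means in 340 of the 551 and 265 of the 383. Over all tested peaks this held for 16698 of 41791. Median log2 changes at 2 h against DMSO were small, at -0.05 for the 551 and 0.07 for the 383. At 4 h against DMSO, 71 of the 551 (12.9%) were called lower, beside 1.67% of all tested peaks. Of the 383, 22 (5.74%) were called higher, beside 0.567%. The losses at 56646363, 116984488, 48140941 and 126417411, described above as begun earlier or lower at 4 h, are in this class. Against DMSO, 4.88% of all tested peaks were lower and 3.46% higher at 24 h. Late losses numbered 234 to 359 and late gains 113 to 210 when a 24 h, 2 h or DMSO library was left out, lowest for losses without 24 h A and for gains without 2 h B.

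The remaining 432 lower and 301 higher peaks were called against DMSO neither at 2 h nor, in that direction, at 24 h. Relative to DMSO, the 432 had a median of -0.31 at 24 h and 0.23 at 2 h, and the 301 had 0.46 at 24 h and -0.39 at 2 h (log2).

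**Figure D3:**
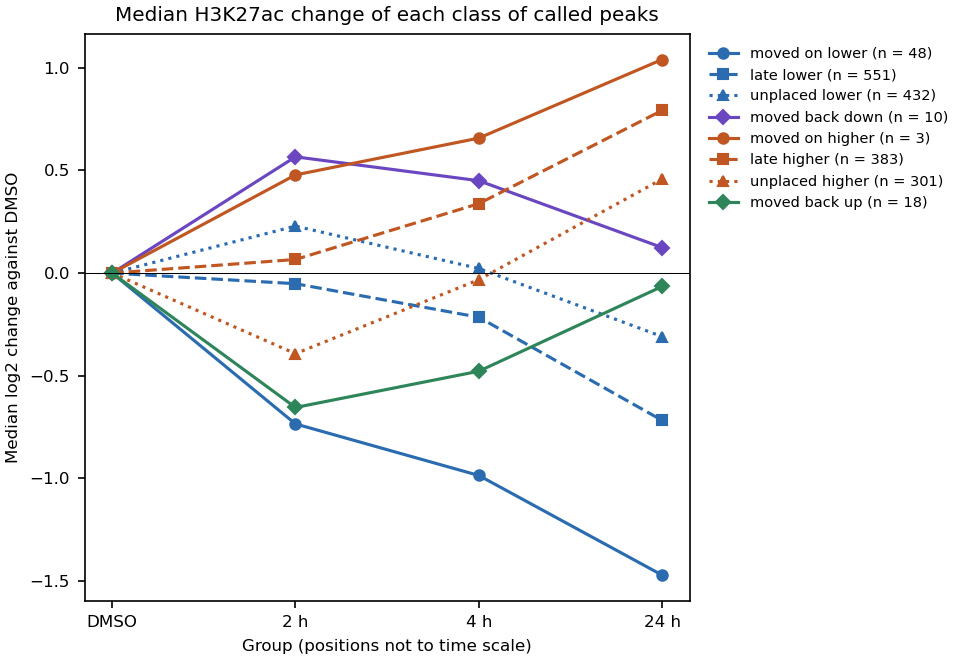
Median log2 change against DMSO (vertical axis) at 2 h, 4 h and 24 h for the classes of peaks called at 24 h against 2 h, with DMSO at 0. Peaks that moved on lower end at -1.47, peaks that moved back up end at -0.07, and late peaks are near 0 at 2 h and apart at 24 h. The classes were defined by calls at 2 h and 24 h, so the positions at those times follow in part from the definition.

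For the 48 peaks that moved on lower, the median differences from DMSO were -0.73 after 2 h, -0.99 after 4 h and -1.47 after 24 h on the log2 scale. At 24 h against 2 h their changes ran from -2.10 to -0.30. Their median level was 27.9 CPM, above the 13.7 of all tested peaks. With single libraries left out, the class held 24 peaks (24 h A), 26 (24 h B), 20 (2 h A), 7 (2 h B), 27 (DMSO A) or 20 (DMSO B).

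Among those of at least median level, the largest change lay on chromosome 1 at 3286971 to 3287371, where 24 h libraries had 6.54 and 6.83 CPM, against 15.4 and 14.9 CPM at 2 h, with 26.5 and 20.7 CPM in DMSO and 11.5 and 11.7 CPM at 4 h. No library of one time overlapped those of another, and the level declined at each time. On chromosome 1 at 209721628 to 209722028 the means were 28.3 CPM in DMSO, 17.7 at 2 h, 11.7 at 4 h and 8.23 at 24 h. On chromosome 9 at 110517073 to 110517473 they were 26.5, 16.3, 13.6 and 8.27 CPM, and on chromosome 17 at 37280270 to 37280670 they were 26.2, 14.7, 11.5 and 8.09 CPM. DESeq2 called none of these 4 at 24 h against 2 h (adjusted p from 0.0553 to 0.326). In edgeR the chromosome 17 peak was not called without 2 h library A (adjusted p = 0.0515), 2 h library B (0.0597) or 24 h library A (0.138), nor the chromosome 9 peak without 24 h library B (0.0913).

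The 3 peaks that moved on higher were strong ones. A pair lay close together on chromosome 20. The peak at 61155329 to 61155729 had 123 and 120 CPM at 24 h, against 83.9 and 84.1 CPM at 2 h (log2 change 0.53, SE 0.08, edgeR adjusted p = 4.8e-07), with 58.9 and 57.7 CPM in DMSO. The peak at 61164142 to 61164542 had 84.6 and 85.8 CPM at 24 h, against 56.4 and 58.7 CPM at 2 h (log2 change 0.56). The third lay on chromosome 12 at 58129018 to 58129418, within a region of 35 peaks, and had 274 and 261 CPM at 24 h, against 220 and 213 CPM at 2 h, with 174 and 180 CPM in DMSO. All 3 were called by DESeq2 and when any 1 of the 24 h or 2 h libraries was left out. The class held 2 peaks when 2 h library B was left out, and 1 peak when DMSO library A or B was.

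Among the 18 peaks that moved back up, the median stood at -0.65 (log2, relative to DMSO) after 2 h, -0.48 after 4 h and -0.07 after 24 h, and none was called by edgeR at 24 h against DMSO. The peak on chromosome 1 at 144999985 to 145000385 had 40.8 and 43.7 CPM at 24 h, against 24.2 and 26.5 CPM at 2 h (log2 change 0.73, SE 0.13, edgeR adjusted p = 2.49e-05). DMSO libraries there had 43.0 and 36.1 CPM, overlapping the 24 h libraries, and 4 h libraries had 29.7 and 31.8 CPM, in between. On chromosome 1 at 119029532 to 119029932 the means were 22.5 CPM in DMSO, 13.2 at 2 h, 16.0 at 4 h and 21.1 at 24 h. On chromosome 2 at 111596117 to 111596517 they were 23.0, 14.3, 18.6 and 21.8 CPM, and on chromosome 10 at 23439504 to 23439904 they were 19.3, 11.4, 12.49 and 17.2 CPM. Of these 4, the peak at 144999985 was called whichever 24 h or 2 h library was left out, and each of the other 3 lost its call in at least one such fit. DESeq2 called the first only (adjusted p from 0.494 to 0.761 for the other 3). With the column letter as a block the chromosome 10 peak also lost it (adjusted p = 0.0501). With single libraries left out, it held 6 peaks (24 h A), 13 (24 h B), 22 (2 h A), 4 (2 h B), 3 (DMSO A) or 2 (DMSO B).

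Among the 10 peaks that moved back down, the medians against DMSO were 0.57 at 2 h, 0.45 at 4 h and 0.12 at 24 h. On chromosome 9 at 136008707 to 136009107, 24 h libraries had 51.1 and 57.1 CPM, against 66.6 and 74.9 CPM at 2 h (log2 change -0.40, SE 0.10, edgeR adjusted p = 0.00408). DMSO libraries had 53.5 and 56.3 CPM and 4 h libraries 76.9 and 73.0 CPM. This peak was thus also high at 4 h, with a call there against DMSO (log2 change 0.45, edgeR adjusted p = 0.00271) and at 24 h against 4 h (-0.47, adjusted p = 0.00152). On chromosome 19 at 14142567 to 14142967 the means were 38.8 CPM in DMSO, 55.4 at 2 h, 50.1 at 4 h and 41.4 at 24 h. On chromosome 9 at 130678593 to 130678993 they were 38.1, 57.4, 48.6 and 43.1 CPM, and on chromosome 22 at 23226716 to 23227116 they were 28.2, 39.3, 37.1 and 28.8 CPM. None of these 4 was called by DESeq2, nor by edgeR in every fit that left out a 24 h or 2 h library. Leaving out 24 h A, 24 h B, 2 h A, 2 h B, DMSO A or DMSO B, the class held 3, 3, 4, 1, 6 or 1 peaks.

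The 4 h and DMSO libraries enter neither side of the 24 h against 2 h comparison, so their difference is a separate measurement at the called peaks. Of the 1041 peaks that fell, 118 were lower at 4 h than in DMSO (11.3%, against a background of 1.67% of all tested peaks) and 5 were higher. Of the 705 that rose, 25 were higher at 4 h (3.55%, against 0.567%) and 6 were lower. The log2 change at 4 h against DMSO was negative in 721 (69.3%) of the peaks that fell and positive in 490 (69.5%) of those that rose. Over all tested peaks 49.4% were negative and 50.6% positive. Median changes at 4 h were -0.10 and 0.17, against 0.00 for all tested peaks, much smaller than those at 24 h (-0.52 and 0.62 against DMSO). The peaks were chosen with the 24 h libraries, which enlarges the 24 h medians but not those at 4 h. The difference in size is therefore partly built in.

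The called peaks were also compared directly between 24 h and 4 h. Of the 1041 lower peaks, 199 were also lower at 24 h than at 4 h, and of the 705 higher peaks, 105 were also higher. Over all tested peaks 0.68% were lower and 0.438% higher at 24 h than at 4 h. These tests share the 24 h libraries that chose the peaks. An excess in the same direction is therefore partly built in, and no timing is drawn from it.

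Most called peaks had no called neighbour. Of the 1041 peaks that fell, 192 stood in a run of neighbours that fell, and of the 705 that rose, 128 stood in such a run of gains. Among 15642 pairs of neighbouring tested peaks within the stitching distance customary for super-enhancers, both fell in 105, both rose in 72, the directions were opposite in 3, and 1 of the pair was called without the other in 1441. Over all tested peaks 2.49% fell and 1.69% rose. Pairs called in the same direction were more frequent than these shares would give if neighbours were called independently. Of the called peaks, 255 that fell and 209 that rose had no other peak within that distance, so they could have no called neighbour. The peaks that fell formed 87 runs of 2 or more neighbours and those that rose 56. Neighbouring windows share one stretch of acetylated chromatin and are not independent. The runs described next were chosen for their length, or for lying close together on chromosome 6, after their values were seen.

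The longest run, of 6 peaks, rose on chromosome 20 between 61147999 and 61167240, and these 6 make up the whole region. Summed over them, 24 h libraries had 472 and 477 CPM, against 321 and 322 CPM at 2 h (log2 change 0.56, SE 0.05, edgeR adjusted p = 1.88e-25). DMSO libraries had 256 and 242 CPM and 4 h libraries 382 and 362 CPM. The 4 groups did not overlap, and the level climbed from time to time, with log2 changes against DMSO of 0.37 at 2 h, 0.58 at 4 h and 0.93 at 24 h, each called. At 24 h against 2 h the single peaks rose by 0.43 to 0.83 log2 units. The outermost peak at 61147999 to 61148399 changed most, with 57.1 and 54.6 CPM at 24 h, against 31.7 and 31.4 CPM at 2 h.

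A run of 4 peaks on chromosome 9 between 133535360 and 133540474 moved on lower as a whole. All 4 were called at 2 h against DMSO and again at 24 h against 2 h, and they account for 4 of the 48 peaks of that class. The last, at 133540074 to 133540474, had 43.0 and 49.1 CPM at 24 h, against 78.7 and 68.7 CPM at 2 h (log2 change -0.67, SE 0.10, edgeR adjusted p = 3.65e-07), with 130 and 118 CPM in DMSO. Its region of 6 peaks averaged 467 ± 9.0 CPM in DMSO, 285 ± 6.9 at 2 h, 248 ± 5.9 at 4 h and 202.2 ± 4.5 at 24 h (SD, n = 2 each). Thus the first 2 h took a log2 change of -0.72 and the time from 2 h to 24 h a further -0.49.

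A run of 5 peaks on chromosome 6 between 164198320 and 164210581 was lowest at 2 h. Its region of 6 peaks had 137 and 129 CPM at 24 h, against 90.2 and 74.8 CPM at 2 h (log2 change 0.71, SE 0.07, edgeR adjusted p = 1.12e-15), with 95.7 and 103 CPM in DMSO and 101 and 101 CPM at 4 h. It was higher than DMSO at 24 h (log2 change 0.42, edgeR adjusted p = 1.71e-06) and lower than DMSO at 2 h (-0.28, adjusted p = 0.0427), so as a summed region it went past its DMSO level. The single peaks of the run were not called at 2 h against DMSO (edgeR adjusted p from 0.256 to 0.738). At 24 h against DMSO only the peak at 164202615 was called (edgeR adjusted p = 0.0114).

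Another stretch of chromosome 6 held 2 runs of 3 peaks each, from 133253785 to 133272712 and from 133383298 to 133394419. These were weak peaks, at 3.30 to 6.05 CPM in 2 h library A for the first run and 3.58 to 4.68 CPM for the second. The runs were found with TMM scaling only, and the balance of gains and losses among weak peaks changed with the scaling. The region of the first run, of 7 peaks, had 56.3 and 56.4 CPM at 24 h, against 40.6 and 33.7 CPM at 2 h, and 54.8 and 45.9 CPM in DMSO. As a sum it was lower than DMSO at 2 h (log2 change -0.45, edgeR adjusted p = 0.0139) and not called at 24 h (0.16, adjusted p = 0.391). The 3 peaks of the run had log2 changes of 0.44, 0.57 and 0.57 at 24 h against DMSO. None of them was called against DMSO at 2 h or 24 h, so the summed region does not describe the run alone. The region of the second run, 133376539 to 133394419, had 33.1 and 31.8 CPM at 24 h, against 19.0 and 15.3 CPM at 2 h, and 14.5 and 20.1 CPM in DMSO. It had not changed by the test at 2 h (log2 change -0.03, adjusted p = 0.979) and rose late.

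**Figure D4:**
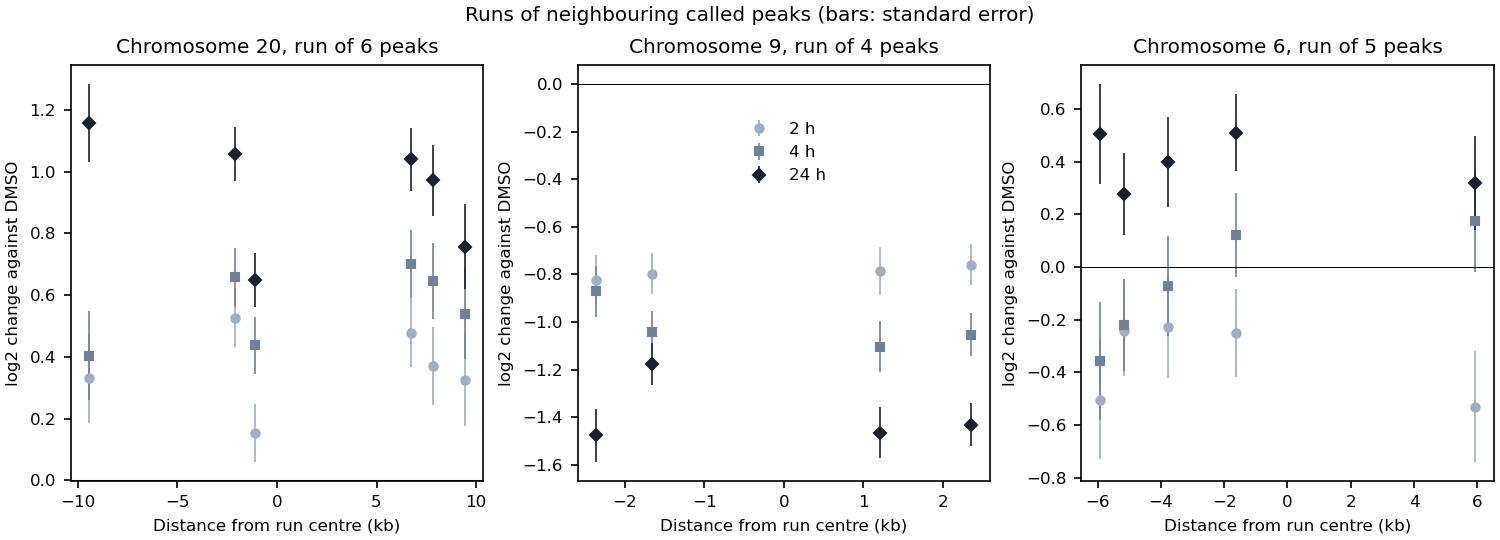
Log2 change against DMSO with its standard error (vertical axis) at 2 h, 4 h and 24 h for each peak of 3 runs, by distance from the centre of the run in kb (horizontal axis). The chromosome 20 peaks climb with time, the chromosome 9 peaks are already near -0.8 at 2 h and lie lower at 24 h, and the chromosome 6 peaks are below DMSO at 2 h and above it at 24 h.

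Other runs held 4 peaks each. One on chromosome 17 between 17409912 and 17412950 rose by 0.40 to 0.57 log2 units at 24 h against 2 h, inside a region of 18 peaks of which 7 were called higher. Summed over that region the log2 change was 0.25, and its 4 called neighbours are all late peaks. A run on chromosome 4 between 7511189 and 7521801 rose by 0.55 to 0.71, and 3 of its 4 peaks were not called at 24 h against DMSO. Runs on chromosome 1 between 7610103 and 7619491, chromosome 12 between 111844094 and 111850116 and chromosome 14 between 75049587 and 75054496 fell, by -0.54 to -0.38, -0.49 to -0.38 and -0.82 to -0.59. In the chromosome 14 run the pair at 75049587 and 75050242 was below DMSO at 4 h (log2 changes -0.77 and -0.69), while the pair at 75053354 and 75054096 was close to it (-0.06 and -0.12).

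When peaks within that distance were joined and their counts summed, 822 regions fell and 575 rose out of 26144 tested, 3.14% and 2.2%. Calls were more frequent in regions with more peaks, where more reads are counted. Of single-peak regions 1.62% fell and 1.34% rose, and of regions with 8 or more peaks 15.9% fell and 6.9% rose, which is 37 and 16 of 232. Single peaks showed a gradient too. In either direction, 2.59% of isolated peaks and 7.28% of peaks in regions of 8 or more were called, against 4.18% of all tested peaks. Peak level was not matched between these peaks, and weak peaks needed a larger change to be called. Whether the gradient among single peaks holds at equal level was not tested. Leaving out 24 h library A left 386 lower and 185 higher regions, and 24 h library B 416 and 275. For 2 h library A these were 495 and 376, and for 2 h library B 373 and 165.

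Among regions of 2 or more peaks and at least median level, the one that fell most lay on chromosome 5 at 141325126 to 141332624. It had 16.3 and 16.2 CPM at 24 h, against 41.4 and 35.4 CPM at 2 h (log2 change -1.23, SE 0.14, edgeR adjusted p = 1.23e-12). DMSO libraries had 28.4 and 32.8 CPM and 4 h libraries 30.1 and 33.8 CPM, so the 2 h libraries were above all others and the change from DMSO to 24 h was smaller (-0.92). A further region of chromosome 5, at 31132974 to 31144704, averaged 44.9 CPM in DMSO, 26.5 at 2 h, 23.1 at 4 h and 12.9 at 24 h, and was called lower at each time against DMSO and again at 24 h against 2 h (log2 change -1.01). Losses between these were measured for the region 125456183 to 125457293 of chromosome 2 (-1.15), the region 109304515 to 109305963 of chromosome 10 (-1.09) and the region 56646363 to 56648457 of chromosome 20 (-1.07). Of these the chromosome 2 and 10 regions were not called at 2 h or 4 h against DMSO (adjusted p from 0.193 to 0.86), and the chromosome 20 region was called at both.

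Among regions that rose, the one on chromosome 20 at 35860176 to 35880036 had 58.3 and 56.2 CPM at 24 h, against 28.1 and 33.9 CPM at 2 h (log2 change 0.87, SE 0.11, edgeR adjusted p = 2.19e-10). DMSO libraries had 31.5 and 31.1 CPM and 4 h libraries 26.0 and 31.3 CPM, so no rise was seen in the first 4 h. The region on chromosome 1 at 95338788 to 95340345 had 40.2 and 40.5 CPM at 24 h, against 17.9 and 22.4 CPM at 2 h, and 20.8 and 22.3 CPM at 4 h. The region 25764654 to 25766807 of chromosome 7 gained most of the 5 named (1.14), and regions 133376539 to 133394419 (0.94) and 158896020 to 158897000 (0.92) of chromosome 6 gained less. None of these 5 was called at 2 h or 4 h against DMSO. All 10 named regions were called by DESeq2 and when any 1 of the 24 h or 2 h libraries was left out.

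Calls were not spread evenly over chromosomes, though no test was made of this. On chromosome 17, 114 of 2502 tested peaks fell (4.56%) and 48 rose (1.92%), and on chromosome 9, 88 of 2280 fell (3.86%) and 48 rose (2.11%). On chromosome 20, 51 of 1550 fell (3.29%) and 43 rose (2.77%), and this share of gains was the largest among chromosomes with 500 or more tested peaks. Of the chromosomes with 500 or more tested peaks, gains outnumbered losses on 2, 3, 4, 6, 13 and 21. Chromosome 6 had 46 gains and 27 losses, chromosome 2 had 91 and 77, chromosome 4 had 34 and 28, and on chromosomes 3 and 21 the counts differed by 1. Among the same chromosomes, 13 had the smallest share of losses, 4 of 679 peaks (0.589%), with 8 gains. Where gains outnumbered losses among them, the median log2 change over all tested peaks of the chromosome lay between 0.02 and 0.04. It was also positive on some where losses led, as on chromosome 20 (0.02). The chromosome counts were made with TMM scaling only, without the offsets that follow abundance, and peak level was not matched.

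**Figure D5:**
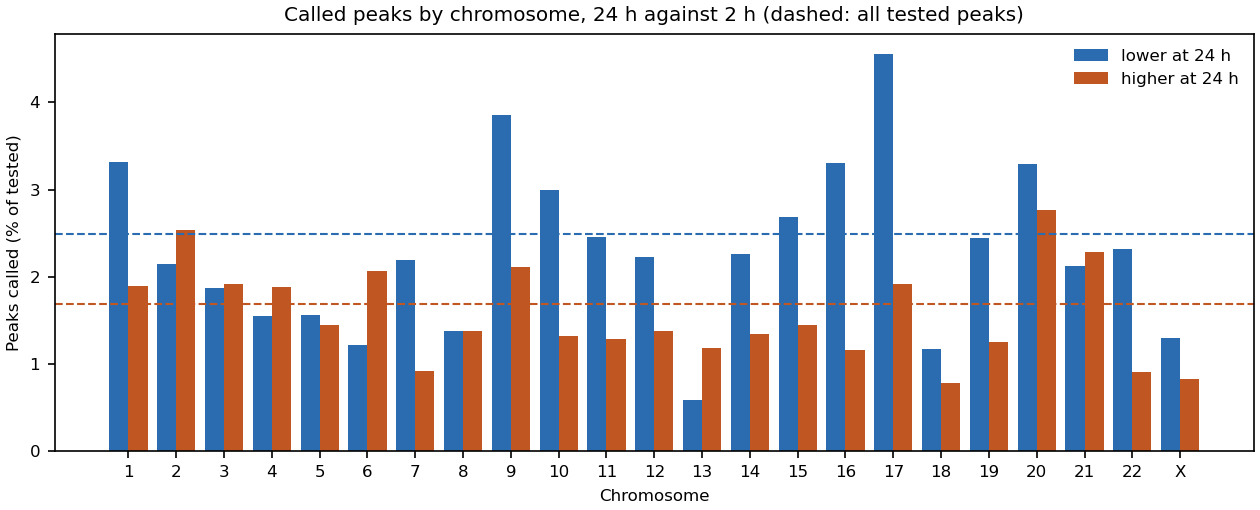
Peaks called lower (blue) and higher (orange) at 24 h against 2 h, as a percentage of the tested peaks of each chromosome, for chromosomes with 500 or more tested peaks. Dashed lines mark the shares over all tested peaks, 2.49% lower and 1.69% higher, and chromosomes 17 and 9 stand highest for losses.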

How the data were processed

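H3K27ac was measured by chromatin immunoprecipitation and sequencing. The authors deposited raw read counts in 42067 peak windows for 8 libraries, per the file headers. Per the submitters' processing notes, Trimmomatic 0.32, Bowtie2, MACS2, DiffBind and DESeq2 were used, with the builds hg19 and dm3. Roles, the libraries used to call peaks, duplicate removal and spike-in use are not given in the sources used here. Scaling removes any shift shared by every peak, and totals in peaks are not sequencing depths. Whether starts count from 0 or 1 is not stated.

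Columns were matched to groups by name, with letters A and B in place of the labels' numbers. The number of columns left without a group was 0. Counts were tested in R 4.3.3 with edgeR 4.0.16: filterByExpr (minimum count 10, minimum total 15), TMM scaling, and one robust quasi-likelihood model of the 4 groups, with Benjamini-Hochberg adjustment over 41791 peaks and calls at 0.05. The fit borrows spread across peaks (median 182 prior degrees of freedom), so standard errors rest mostly on all peaks. Standard errors of log2 changes were taken from the F statistic. For regions, neighbouring peaks were stitched at the distance customary for super-enhancers. The procedure was also run on simulated counts. These were drawn with the spread that edgeR had itself fitted, so they cannot show whether that spread is too small.

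Named peaks were the 10 losses and 10 gains of greatest log2 change among called peaks with a mean at or above the median of 13.7 CPM and both 24 h libraries on one side of both 2 h libraries. The same rule took up to 4 peaks from each class that moved on or back, and 5 lower and 5 higher regions of 2 or more peaks. The comparison, lists and tests were chosen with earlier results of these data known. Lists of genes and cell type markers could not be applied without an hg19 annotation and were not used here. Alternatives covered scaling, filtering, DESeq2 1.42.0, a 1.2-fold threshold, a fit of 2 groups, a block by letter, stitching within 5 kb and leaving out libraries.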

Additional observations from a re-analysis of the deposited data

How the results depend on the processing

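The DESeq2 Wald test called 49 lower and 12 higher peaks, and gave no adjusted p for 19298 peaks. At an unadjusted p under 0.05 it had 1291 lower and 808 higher peaks, and edgeR had 3836 and 3505. The edgeR counts are 9.18% and 8.39% of the tested peaks. Where nothing changed, a share of 0.05 would pass this threshold by chance. The DESeq2 counts of both directions together are close to that share. Against a 1.2-fold change (glmTreat), 187 peaks were lower and 122 higher, and of the named peaks those at 37280270 and 58129018, 3 of the 4 that moved back up and all 4 that moved back down lost their call. For regions DESeq2 called 83 lower and 29 higher. Leaving out any 1 of the 8 libraries (the DMSO and 4 h ones were added after seeing the data) gave 363 to 1053 lower and 167 to 768 higher peaks, and leaving out a 24 h or 2 h library gave 373 to 495 lower and 165 to 376 higher regions. At an adjusted p of 0.1 the classes held 84 peaks that moved on lower, 6 moved on higher, 47 moved back up, 22 moved back down, 848 late lower, 633 late higher, 693 unplaced lower and 555 unplaced higher. Leaving out a 24 h, 2 h or DMSO library gave 7 to 27, 1 to 3, 2 to 22, 1 to 6, 234 to 359, 113 to 210, 100 to 611 and 48 to 440 in the same order. The cause of these differences was not tested, beyond fewer libraries. With total counts 924 peaks were lower and 811 higher, which made losses 53.3% of calls in place of 59.6%. The total counts of lower and higher peaks stayed within 1.5 times under DESeq2-type size factors, no filter, abundance offsets and the fit of 2 groups, and those of regions when stitched within 5 kb. The classes were not recounted under these settings. Within quartiles the abundance offsets moved counts further, in the weakest to 151 lower and 105 higher (76 and 224 without them) and in the strongest to 149 higher (92 without them). No named peak or region changed direction under any alternative run. They were chosen with both 24 h libraries on one side of both 2 h libraries. Leaving out a 24 h or 2 h library was therefore bound to keep their direction. The letters A and B are not tied to the labels' replicate numbers, and deviations of same-letter libraries correlated between -0.0332 and 0.0543 across groups, so they are not shown to pair the libraries. With the letter as a replicate block 1079 peaks were lower and 713 higher. Detection was limited by depth in weak peaks: the median standard error was 0.30 in the weakest quartile and 0.11 in the strongest.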

Other observations

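Of the 8253 tested regions of 2 or more peaks, 19 held both a peak that fell and a peak that rose at 24 h against 2 h. Only 2.49% of all tested peaks fell and 1.69% rose, so few regions were likely to hold both. Whether 19 differs from the number so reached was not tested.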
